A study of Homo sapiens with 4 samples.

Results

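The genes described here encode ligands for activating receptors of natural killer cells, the lymphocytes that kill stressed or transformed cells. The 9 members were chosen by symbol from the 46427 rows of the count sheets, and each stood on a row of its own. MICA, MICB, ULBP1, ULBP2, ULBP3 and RAET1L (also called ULBP6) encode ligands of the receptor NKG2D. PVR (CD155) and NECTIN2 (CD112) encode ligands shared by the activating receptor DNAM-1 and the inhibitory receptor TIGIT. NCR3LG1 (B7-H6) encodes a ligand of the activating receptor NKp30. The cells were H1944 (NCI-H1944), a human lung cancer cell line, exposed for 48 h to BAY1217389, an inhibitor of the mitotic kinase MPS1, or to its vehicle DMSO. Both groups were then kept for 24 h without compound before RNA was collected. Each group had 2 libraries labelled as biological replicates, of a single cell line, and the labels do not say whether these were separate cultures. The p-values therefore measure only the spread between these libraries, which may be technical.

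NKG2D ligands resemble MHC class I molecules in fold but present no peptide to T cells. Healthy cells carry little of them, and their genes are known to respond to DNA damage, heat shock and other stress, so that an affected cell is marked for killing. An activating signal is weighed in the natural killer cell against inhibitory signals, which come mainly from MHC class I on the same target. DNAM-1 and TIGIT compete for PVR and NECTIN2, so these ligands can signal in either direction. Surface NKG2D ligands can also be cut off by metalloproteases, and RNA levels do not show how much ligand is on the surface.

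The libraries held 38904473 to 43661342 reads assigned to genes, and every member was read in all 4. Of 6 epithelial markers, EPCAM was at 1.904 to 2.96 CPM (reads scaled to a common library size). The 6 summed to at least 4130 CPM, mostly KRT8 and KRT18, while KRT19 had 0 reads in every library. The lung lineage gene NKX2-1 and the surfactant genes SFTPB and SFTPA1 were also at 0, and the 5 lung epithelial markers summed to at most 0.872 CPM in any library. The defining lung markers were therefore at or near 0 in cells labelled as lung cancer. Of 13 natural killer cell genes, 6 had no read in any library (NCR1, NCR3, TIGIT, CD96, NKG7 and GNLY), as had the leukocyte gene PTPRC. The summed level of the 13 was 2.27 to 2.61 CPM after DMSO and 3.81 to 4.49 CPM after BAY1217389. Most of that difference was KLRK1, at 0 in both DMSO libraries and at 1.056 and 1.776 CPM after BAY1217389. The split of its reads from an overlapping gene is uncertain, as described at the end. Of 8 markers of other immune cells, 4 were at 0 in all libraries, and the list summed to 70.9 to 73.8 CPM after DMSO and 164 to 167 CPM after BAY1217389, mostly CD68. The 5 fibroblast markers summed to 29.6 to 33.3 and 45.7 to 46.2 CPM, with PDGFRA at 0. The 3 endothelial markers summed to 0.787 to 0.792 and 1.92 to 1.93 CPM. Of these, CDH5 and VWF had 0 reads in both DMSO libraries, so the DMSO sum was PECAM1 alone. VWF was also at 0 in BAY1217389 replicate 2. The part of the marker genes of other cell types in the results below was not tested. In bulk RNA, fewer cells with a transcript and less of it per cell cannot be told apart.

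The sequences of RAET1L and ULBP2 are shown first because the largest change lay in RAET1L and its reads are the hardest to assign. In GENCODE 29 the coding sequences of RAET1L and ULBP2 were identical at 717 of 739 aligned positions (97%). Of the other member pairs compared, none exceeded 78.8%, the value for MICA and MICB. Of the 50-base words in the RAET1L transcript, 45.3% also occurred in a transcript of another gene, led by ULBP2 and RAET1G, and 16.8% of its 100-base words did. For ULBP2 these shares were 32.2% and 11.9%, for ULBP3 12.4% and 6.86%, and for ULBP1 6.85% and 1.15%. For MICA, MICB, PVR, NECTIN2 and NCR3LG1 the share of 50-base words was at most 3.35%. No source used here gives the read length or the handling of reads that map to several genes, so counts of RAET1L and ULBP2 are uncertain in their split. The 60 coding bases at which this pair differs most (coding positions 23 to 82 of each, RAET1L on the minus strand and ULBP2 on the plus strand of chromosome 6) have 7 differing bases, in capitals:
RAET1L: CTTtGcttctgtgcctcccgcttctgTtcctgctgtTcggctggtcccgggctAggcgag
ULBP2: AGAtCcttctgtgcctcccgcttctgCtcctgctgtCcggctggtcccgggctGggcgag
Reads over differing bases, in this stretch or elsewhere in the pair, can tell the genes apart. Reads that lie only over identical bases cannot.

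The regions around the start sites were much less alike. Over the 300 bases from 250 before to 50 after the start (RefSeq, GRCh38.p14, 9 of 9 members found), RAET1L and ULBP2 were identical at 50.3% of aligned positions. The 6 pairs among ULBP1, ULBP2, ULBP3 and RAET1L ran from 38.9% to 51.7%. RAET1L and ULBP2 lay within that range, below ULBP2 with ULBP3 (50.8%) and ULBP3 with RAET1L (51.7%) and above the pairs with ULBP1. MICA and MICB were identical at 77.8%. The windows lie at chr6:150025483-150025782 on the minus strand for RAET1L and at chr6:149941764-149942063 on the plus strand for ULBP2. Capitals mark the 1 run of at least 10 aligned identical bases, 13 bases long:
RAET1L: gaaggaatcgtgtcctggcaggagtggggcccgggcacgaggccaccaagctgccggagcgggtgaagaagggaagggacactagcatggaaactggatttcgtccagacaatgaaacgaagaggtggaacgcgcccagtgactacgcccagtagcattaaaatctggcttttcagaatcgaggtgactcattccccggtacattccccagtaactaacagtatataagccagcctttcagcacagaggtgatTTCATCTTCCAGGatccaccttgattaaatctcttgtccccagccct
ULBP2: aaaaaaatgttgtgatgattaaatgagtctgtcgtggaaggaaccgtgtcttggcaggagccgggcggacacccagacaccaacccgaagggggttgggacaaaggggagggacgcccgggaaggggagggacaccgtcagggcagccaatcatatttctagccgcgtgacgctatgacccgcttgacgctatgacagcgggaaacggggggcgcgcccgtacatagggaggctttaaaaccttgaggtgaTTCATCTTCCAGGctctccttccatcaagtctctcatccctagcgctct
Both strands of all 9 windows were searched for 5 motifs of factors known to act on stress or immune genes. These were the interferon-stimulated response element (GAAA, any 2 bases, GAAA), the STAT element (TTCNNNGAA), the NF-kB element (GGG, any 2 bases, TTTCC), the heat shock element (GAA, TTC and GAA, each 2 bases apart) and the E2F element (TTTNGCGC). None of the 9 windows held any of these letter patterns. Of 35093 promoter windows of the same length, 3.58%, 7.66%, 1.91%, 0.49% and 1.79% held them in that order. The absence says only that these letters are not in these windows.

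After BAY1217389, 6 of the 9 ligand genes were higher, 1 was lower and 2 did not pass the test. RAET1L rose 5.29-fold, MICB 1.39-fold and NECTIN2 1.35-fold. ULBP2, NCR3LG1 and MICA rose by at most 1.199-fold, PVR fell, and ULBP1 and ULBP3 did not pass. A gene was called by edgeR's quasi-likelihood test over 16738 genes with Benjamini-Hochberg adjusted p under 0.05, where 14.5% of genes tested were called higher and 13.3% lower, together 27.8%. The median log2 fold change (BAY1217389 minus DMSO) was 0.26 over the 9 members and 0.00 over all genes tested. The groups did not overlap for any of the 9 members, which was also true of 61% of all genes tested. With 2 libraries against 2, an exact permutation test of a single gene cannot go below 0.333, so the calls depend on the variance shared across genes.

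**Figure D1:**
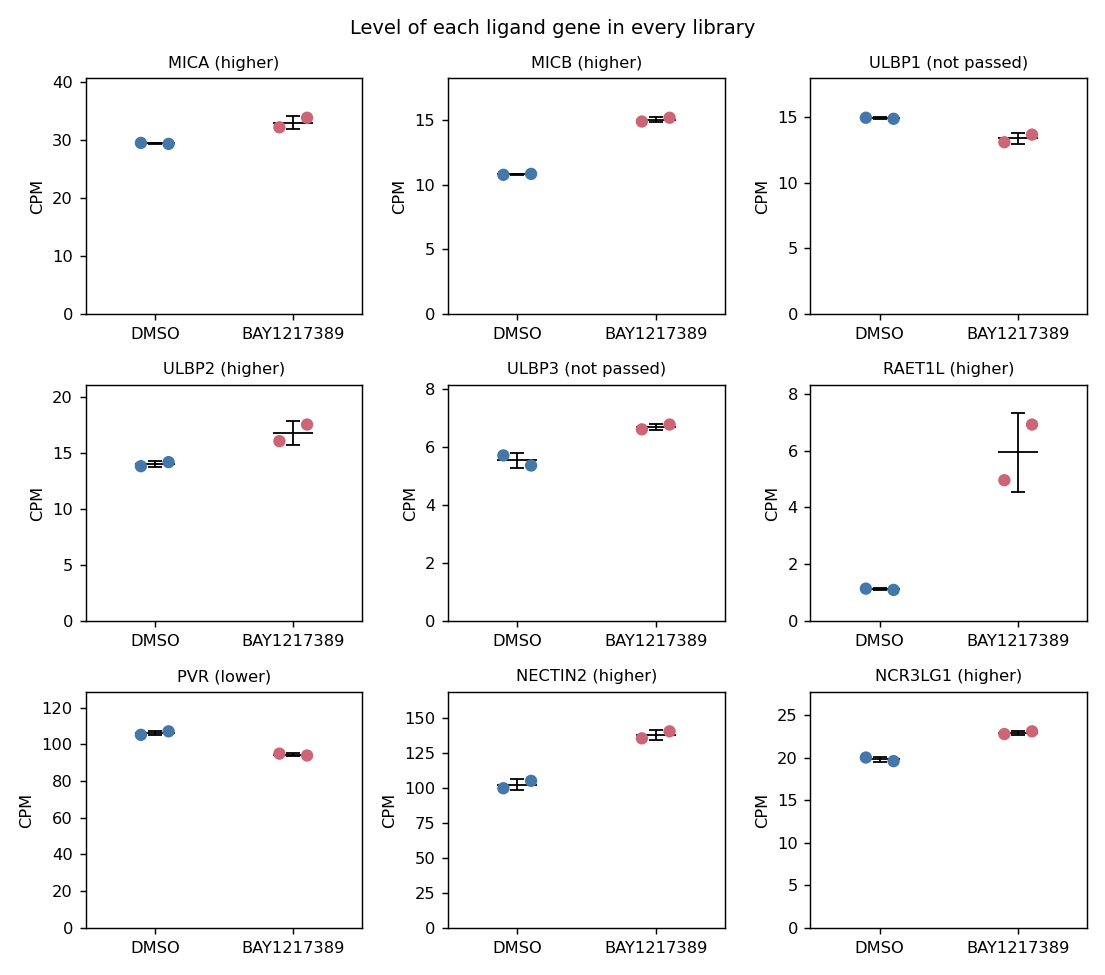
Level of each ligand gene in CPM (vertical axes, each starting at 0) in the 2 DMSO and 2 BAY1217389 libraries; points are libraries, and black bars are the mean and SD of 2. RAET1L went from about 1.12 to 5.94 CPM, with the BAY1217389 libraries apart from each other, while PVR was lower after BAY1217389.

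Among the NKG2D ligands, RAET1L had the largest change. After DMSO it had 45 and 43 reads, and after BAY1217389 it had 216 and 296. That is 1.142 and 1.098 CPM against 4.96 and 6.92 CPM, a mean of 1.12 ± 0.031 against 5.94 ± 1.39 CPM (SD, n = 2 in each group). Both BAY1217389 libraries lay far above both DMSO libraries, and replicate 2 was the higher of the treated pair. The log2 fold change was 2.40 (SE 0.22, edgeR adjusted p = 2.66e-11), and 1.11% of all genes tested had a larger one. RAET1L encodes a surface protein of the RAET1 family, a group of genes side by side on chromosome 6.

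MICB, a transmembrane ligand encoded in the MHC region, had 424 reads in each DMSO library, against 648 and 649 with BAY1217389. Its mean went from 10.8 ± 0.048 to 15.02 ± 0.21 CPM (SD, n = 2), and the replicates were almost equal within each group. The log2 fold change was 0.48 (SE 0.10, edgeR adjusted p = 1.82e-04), and 11.5% of all genes tested had a larger one. MICA, its closest relative, had 29.5 and 29.4 CPM after DMSO and 32.2 and 33.9 CPM after BAY1217389. Its difference, 0.17 on the log2 scale with an SE of 0.06, passed narrowly (edgeR adjusted p = 0.049). It did not pass without any of the 4 libraries in turn, with adjusted p from 0.0656 to 0.230. Over 13 alternatives its adjusted p ran from 3.76e-04, with MICA and MICB reads summed, to 1. The number of MICB reads per MICA read was 0.365 and 0.369 after DMSO and 0.462 and 0.448 after BAY1217389, so the groups did not overlap in this ratio. MICA-AS1, an antisense gene at MICA, had 208 and 222 reads after DMSO and 225 and 192 after BAY1217389. Whether counting used strand is not given, so it is uncertain whether reads of MICA and MICA-AS1 were told apart.

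ULBP2, a lipid-anchored ligand, had 13.8 and 14.2 CPM with DMSO against 16.04 and 17.52 CPM with BAY1217389. Its log2 fold change was 0.26 (SE 0.09, edgeR adjusted p = 0.0264). The ULBP2 call was lost without DMSO replicate 1 (adjusted p = 0.127), without DMSO replicate 2 (0.0707), in the fit lacking BAY1217389 replicate 2 (0.209) and by DESeq2 (0.146), within a range of 0.00881 to 1 over the alternatives that tested ULBP2 by itself. Because ULBP2 and RAET1L share sequence, their reads were also summed with those of their relative RAET1G. The sum was higher by 0.39 on the log2 scale (SE 0.06), with an edgeR adjusted p of 1.11e-05. RAET1L reads per ULBP2 read stood at 0.0827 and 0.0775 after DMSO and at 0.309 and 0.395 after BAY1217389. In both treated libraries RAET1L therefore took a larger part of the reads of this pair.

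ULBP3 had 5.71 and 5.36 CPM after DMSO and 6.61 and 6.78 CPM after BAY1217389. Its log2 fold change of 0.27 (95% confidence interval -0.01 to 0.55, edgeR adjusted p = 0.145) did not pass. ULBP1 had 14.9 and 14.8 CPM after DMSO and 13.1 and 13.6 CPM after BAY1217389. Among the 6 NKG2D ligands chosen here it alone had a negative value, a log2 fold change of -0.16 (95% confidence interval -0.34 to 0.03, edgeR adjusted p = 0.223), which did not pass. The ULBP3 interval includes the log2 fold changes called for ULBP2 and MICA, so a rise of that size was not excluded for ULBP3, whereas the ULBP1 interval ends at 0.03. In RefSeq the genes lie on chromosome 6 in the order RAET1E, RAET1G, ULBP2, ULBP1, RAET1L and ULBP3. The largest change thus lay between the 2 members that did not pass.

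Reads per kilobase (RPKM, CPM divided by the summed exon length in GENCODE 29) allowed levels to be compared between genes. After DMSO, PVR (30.2 RPKM) and NECTIN2 (29) were highest, followed by MICA (12.3), ULBP2 (10.4), ULBP3 (5.60), ULBP1 (4.74), MICB (4.17), NCR3LG1 (3.08) and RAET1L (0.832). PVR, at 29.9 and 30.4 RPKM, and NECTIN2, at 28.3 and 29.8, were neighbours whose library values lay close together. After BAY1217389 NECTIN2 (39.1 RPKM) stood above PVR (26.8), and RAET1L (4.41) had levels like those of ULBP1 (4.25), with libraries at 3.68 and 5.14 that lay on both sides of it. The order depends on the length used. With the length of a single RefSeq-matched transcript, the DMSO values were 41.6 for NECTIN2, 31.9 for PVR and 21.2 for MICA, and RAET1L was still the lowest at 1.4. On that length RAET1L reached 7.4 after BAY1217389, above ULBP1.

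Summed over the 6 NKG2D ligands chosen here, which leaves out RAET1E (18.2 to 17.2 RPKM) and RAET1G (11.4 to 12.9 RPKM), the level was 38.1 and 37.9 RPKM after DMSO and 45.7 and 49.4 RPKM after BAY1217389. RAET1L made up 2.22 and 2.15% of this sum after DMSO and 8.06 and 10.4% after BAY1217389. MICA remained the largest share of the 6, at 32.5 and 32.4% and then 29.6 and 28.8%, with ULBP2 next at 26.1 to 27.7% in the 4 libraries. ULBP1 went from 12.5 and 12.4% to 9.11 and 8.79%. The sum is of RNA and gives no weight to how strongly each protein binds NKG2D.

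**Figure D2:**
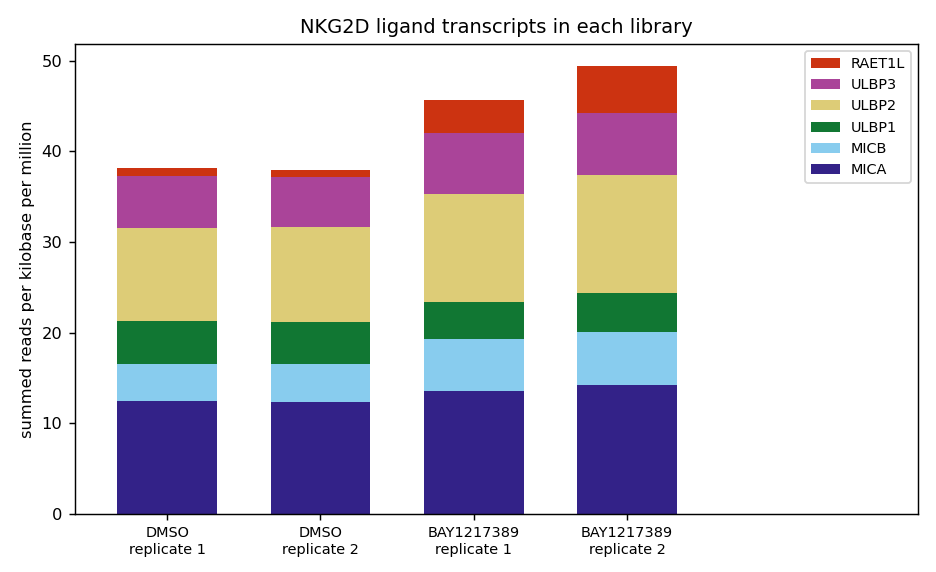
Summed level of the 6 NKG2D ligand genes in RPKM (vertical axis) in each of the 4 libraries, with a coloured segment for each gene. The bars reach 38.1 and 37.9 after DMSO and 45.7 and 49.4 after BAY1217389, and the RAET1L segment is the thinnest after DMSO.

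The ligands of DNAM-1 and TIGIT went in opposite directions. NECTIN2, an adhesion molecule of the nectin family, had 99.9 and 105 CPM with DMSO against 136 and 141 CPM with BAY1217389. Its log2 fold change was 0.43 (SE 0.04, edgeR adjusted p = 3.84e-11). PVR, the poliovirus receptor and the ligand that TIGIT binds most strongly, had 105 and 107 CPM after DMSO and 94.96 and 93.94 CPM after BAY1217389. It fell by 0.17 on the log2 scale (SE 0.04, edgeR adjusted p = 9.44e-04). NECTIN2 reads per PVR read were 0.950 and 0.982 after DMSO and 1.43 and 1.5 after BAY1217389, with no overlap between the groups. Both genes lie on chromosome 19. The PVR call held without each of the 4 libraries, but tested against a fold change of 1.2 the adjusted p was 1, within a range of 6.68e-04 to 1.

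NCR3LG1, a B7 family member that NKp30 recognises on tumour cells, had 20.03 and 19.61 CPM after DMSO and 22.8 and 23.1 CPM after BAY1217389. The log2 fold change was 0.21 (SE 0.08, edgeR adjusted p = 0.0358). The NCR3LG1 call was lost without any of the 4 libraries in turn (adjusted p 0.0955 to 0.165) and with DESeq2 (0.166), and its adjusted p ran from 0.0150 to 1 over the alternatives.

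**Figure D3:**
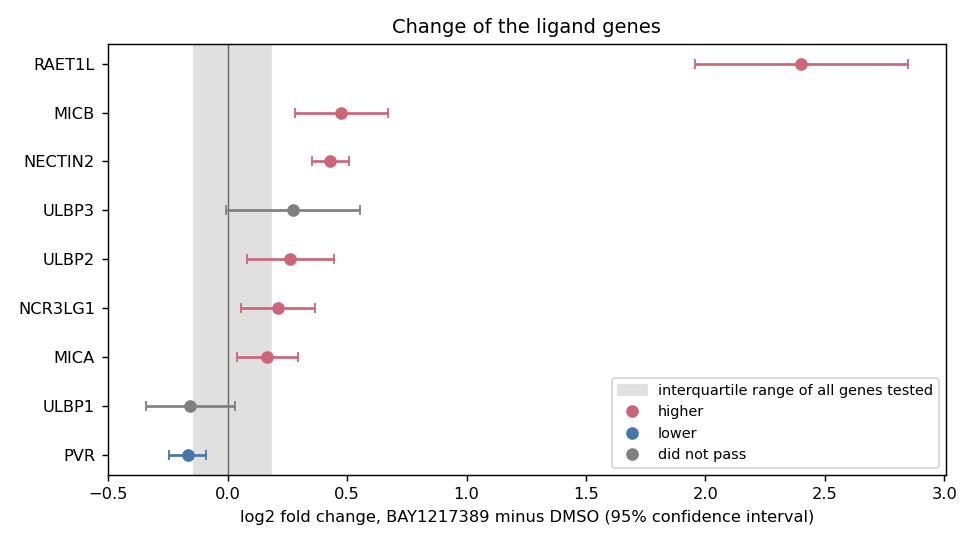
Log2 fold change, BAY1217389 minus DMSO (horizontal axis), of each ligand gene with its 95% confidence interval; colours give the call and the grey band is the interquartile range of all genes tested (-0.14 to 0.18). RAET1L stands far to the right at 2.40, and PVR at -0.17 is the gene called lower.

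RAET1L and NECTIN2 kept their calls wherever they were tested. RAET1L passed in all 11 alternatives in which it was tested by itself, with log2 fold changes from 2.15 to 2.62, and it was not tested under the stricter filter on low counts. NECTIN2 passed in all 12 of its alternatives, with log2 fold changes from 0.39 to 0.46. MICB passed in 12 of 13, the sum with MICA included, and was lost only against a fold change of 1.2 (edgeR adjusted p = 0.0545). DESeq2 called 3 members higher, and over all genes it called 1620 higher, against 2428 by edgeR as described. Leaving out any single library also lowered the number of members called higher, and that of all genes called higher.

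**Figure D4:**
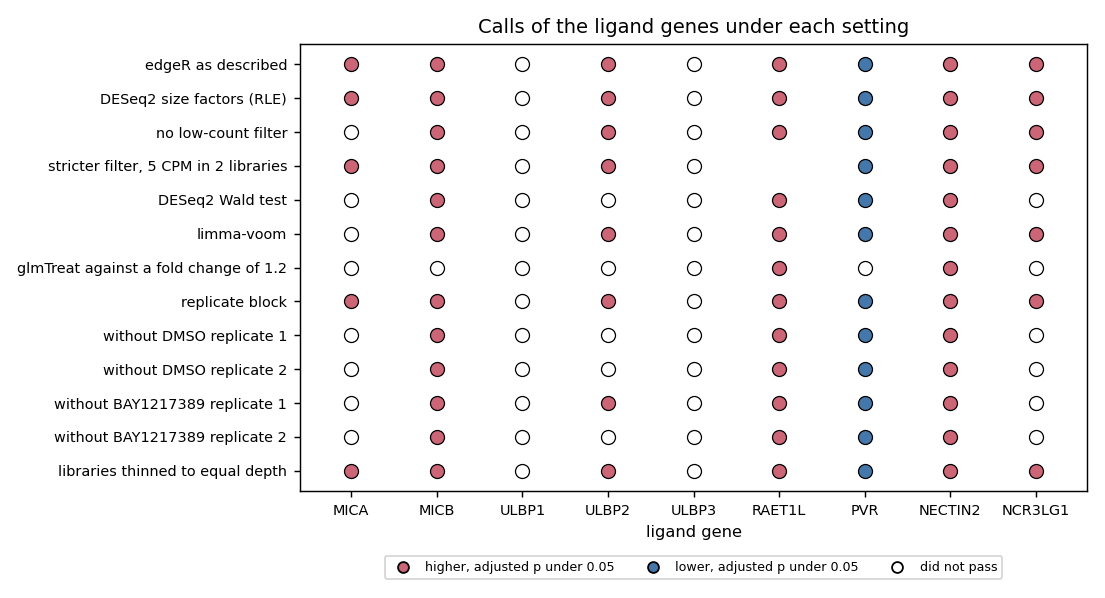
Call of each ligand gene (columns) under each setting (rows); red and blue circles are genes higher or lower with adjusted p under 0.05, open circles did not pass, and a missing circle was not tested. MICB, RAET1L and NECTIN2 are red in nearly every row, whereas MICA, ULBP2 and NCR3LG1 are open in several.

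Genes with the most similar pattern were sought among 10449 tested genes reaching 5 CPM in the higher group, antisense and noncoding genes left out, by Euclidean distance of log2 CPM centred on the DMSO mean over the 4 libraries. Nearest to RAET1L were IFI35 (36.5 to 196.5 CPM, log2 fold change 2.43), NLRC5 (15.7 to 75.8 CPM, 2.27) and IFI27 (132 to 652 CPM, 2.31), with distances of 0.266, 0.286 and 0.324. IFI35 and IFI27 are interferon-induced genes and NLRC5 encodes a transactivator of MHC class I genes. Nearest to MICB were VSIR, COL4A1 and SPP1, at distances of 0.0207 to 0.0278, and nearest to NECTIN2 were ATP8B2, LATS2 and TNFAIP2, at 0.0139 to 0.0345. Nearest to MICA were NFKB1, UBA1 and SF3B4, to ULBP2 TMC6, RAB5C and SMPDL3B, to NCR3LG1 DUSP14, BAZ2A and MICAL3, and to PVR NATD1, NMD3 and RPS10. For small changes many genes lie almost as near, and a likeness over 4 libraries in 2 groups is mainly a likeness in fold change.

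MHC class I genes, which encode the ligands of inhibitory receptors, had larger changes than most of the activating ligands. Of 6 tested, 5 were higher and 1 (HLA-G) did not pass, and the list's median log2 fold change was 1.33 against 0.27 for the 6 NKG2D ligands. HLA-E, the ligand of the inhibitory receptor NKG2A, had 105 and 106 CPM after DMSO and 285 and 292 CPM after BAY1217389 (log2 fold change 1.45, SE 0.03). HLA-B (1.98), HLA-C (1.22), both ligands of killer immunoglobulin-like receptors, and HLA-F (2.12) were higher as well. RAET1L, at 2.40, was the single NKG2D ligand with a change above those. HLA-G had 0 and 150 reads after DMSO and 0 and 298 after BAY1217389, with replicate 1 at 0 in both groups. Reads of HLA genes can be shared between genes, and the split of HLA-G cannot be relied on. The difference in change between these lists and the ligands was not tested. For this list and those below, the shares over all genes tested were 14.5% called higher and 13.3% called lower.

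Of 9 tested genes for other ligands of activating receptors, out of 13 listed, 2 were higher and 7 did not pass, and the list's median log2 fold change was 0.18. NID1, a basement membrane protein bound by NKp44, had 29.2 and 26.5 CPM after DMSO and 36.53 and 37.99 CPM after BAY1217389 (log2 fold change 0.42, SE 0.06). CLEC2B, the ligand of NKp80, had 30 and 31 reads after DMSO and 78 and 52 after BAY1217389 (0.95, SE 0.33, edgeR adjusted p = 0.0261). The CLEC2B call was lost without BAY1217389 replicate 1 (adjusted p = 0.338), without DMSO replicate 1 (0.0736) and without DMSO replicate 2 (0.0603), within a range of 0.0265 to 0.338. TNFSF9, a costimulatory ligand, and PDGFD, a ligand of NKp44, had log2 fold changes of 0.16 and 0.22 and did not pass. PDGFD rested on single libraries: its value was 0.32 without DMSO replicate 1, where it passed (edgeR adjusted p = 0.0293), 0.33 without BAY1217389 replicate 1, 0.12 without DMSO replicate 2 and 0.11 without BAY1217389 replicate 2, with adjusted p from 0.026 to 1 over its alternatives. RAET1G and RAET1E, which encode further NKG2D ligands of the RAET1 family, had 17.7 and 16.1 against 18.2 and 20.1 CPM and 45.2 and 47.8 against 42.2 and 45.5 CPM, and did not pass either. RAET1E shares 92.4% of its 50-base words with an overlapping gene in GENCODE 29. Whether the counting included that gene is not known, so it is uncertain whether the RAET1E counts are affected.

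Of 9 tested genes for other inhibitory or shared ligands, 5 were higher and 4 did not pass, and the list's median log2 fold change was 0.16. LGALS9, which encodes the galectin bound by TIM-3, had 20 and 31 reads after DMSO and 569 and 539 after BAY1217389 (log2 fold change 4.30, SE 0.22). CEACAM1, an inhibitory adhesion molecule, went from 1.904 and 3.192 to 15.03 and 14.37 CPM (2.53, SE 0.16). NECTIN3, a further nectin, was higher by 0.34 (SE 0.06) and the cadherin gene CDH2 by 0.76 (SE 0.18). The CDH2 call was lost without BAY1217389 replicate 1 (edgeR adjusted p = 0.0546, range 1.94e-04 to 0.0546). NECTIN1 and NECTIN4 did not pass (-0.04 and 0.13).

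Of 7 tested adhesion ligands, 3 were higher and 4 did not pass, and the list's median log2 fold change was 0.23. ICAM1, the ligand of the integrin LFA-1, had 20.1 and 21.7 CPM after DMSO and 28.9 and 30.0 CPM after BAY1217389 (log2 fold change 0.49, SE 0.07). CD58, the ligand of CD2, rose from 19.3 and 18.7 to 26.1 and 23.0 CPM, and CD59, a complement inhibitor, from 128 and 122 to 148 and 146 CPM. ICAM3 was at -0.32 and did not pass.

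Of 9 tested genes linked to shedding of ligands, 6 were higher and 3 did not pass, and the list's median log2 fold change was 0.19. The sheddase gene ADAM10 rose from 98.7 and 102 to 122 and 115 CPM (log2 fold change 0.24, SE 0.04) and the membrane metalloprotease gene MMP14 from 55.6 and 57.4 to 66.9 and 65.8 CPM (0.23, SE 0.05). PDIA6, a disulfide isomerase with a role in MICA shedding, rose by 0.14 (SE 0.03). TIMP3, an inhibitor of these proteases, had the largest change of the list, from 46.2 and 46.6 to 88.4 and 85.8 CPM (0.91, SE 0.05). The protease genes ADAM9 (-0.05) and MMP2 (0.09) did not pass, nor did RHBDF1 (0.19). ADAM17 (0.11, edgeR adjusted p = 0.0341) and RHBDF2 (0.29, edgeR adjusted p = 0.00744) were higher.

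Genes for stress and DNA damage regulators of NKG2D ligands moved in both directions. Of 18 tested, 5 were higher, 6 lower and 7 did not pass, and the list's median log2 fold change was -0.02. STAT3 (0.30, SE 0.03), CHEK2 (0.30, SE 0.08), RELA (0.20, SE 0.04), NFKB1 (0.17, SE 0.05) and SP3 (0.12, SE 0.04) were higher. ATF4, an activator of ULBP1 transcription in human cells, fell from 1001 and 1012 to 883 and 909 CPM (-0.17, SE 0.02). The heat shock factor gene HSF1 (-0.11) and the kinase genes ATM (-0.15) and CHEK1 (-0.24) were lower, and ATR (0.21, edgeR adjusted p = 0.0541) did not pass. CHEK2 no longer passed when replicate 1 of either DMSO (edgeR adjusted p = 0.078) or BAY1217389 (0.0791) was left out, and its adjusted p ran from 2.72e-04 to 0.75. The NFKB1 call was lost without DMSO replicate 1 (0.0671), without DMSO replicate 2 (0.0709) or BAY1217389 replicate 2 (0.117), and the values ran from 0.00279 to 1. The SP3 call was lost without DMSO replicate 1 (0.0875), without DMSO replicate 2 (0.101) or BAY1217389 replicate 1 (0.18), and the values ran from 0.00128 to 1.

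**Figure D5:**
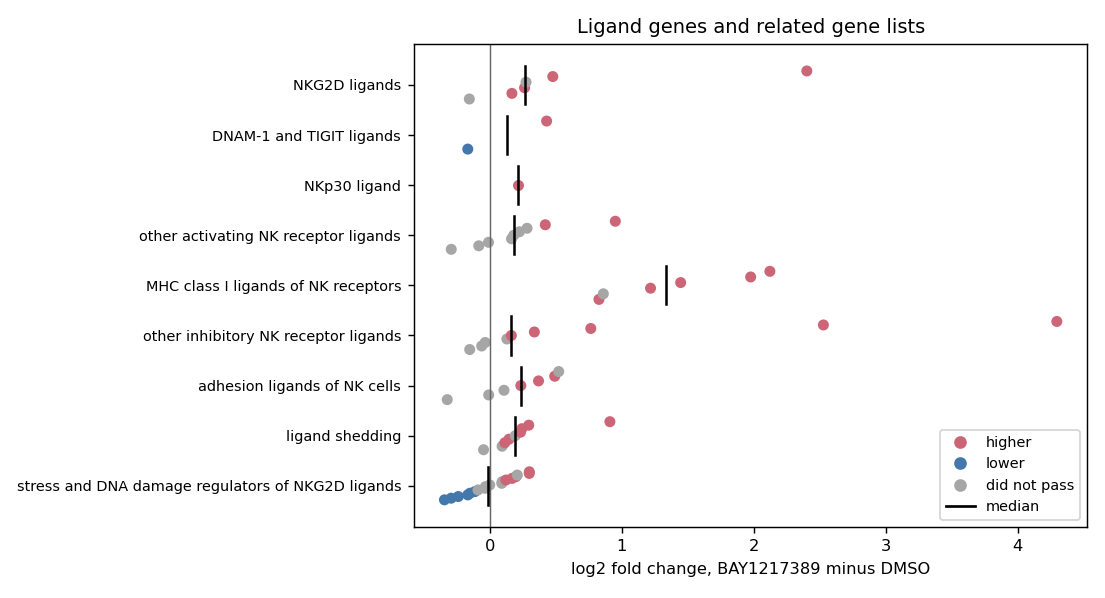
Log2 fold change, BAY1217389 minus DMSO (horizontal axis), of each tested gene in the ligand groups and related lists (rows); colours give the call and black bars the median of each list. The MHC class I list has its median at 1.33, and the regulators of NKG2D ligands lie on both sides of 0.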

How the data were processed

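RNA of H1944 cells was made into libraries with a poly(A) selecting, strand-marking kit, per the labels' protocols. The authors deposited tables of raw read counts, whole numbers for each gene, headed by symbol and RefSeq identifier. The submitters' processing notes name the build hg18, although some identifiers are newer than that build. No source used here names the aligner, the counter or the use of strand. A further 4 columns of per-sample values (16 counting repeats) match no sample and were not used. Total counts were 39332931 and 38904473 (DMSO) and 43661342 and 43067647 (BAY1217389), of which 3 reads are 0.0687 to 0.0771 CPM, counting error only. Replicate libraries differed beyond sampling noise (chi-square per degree of freedom 3.74 and 3.93).

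From the counts, R 4.3.3 with edgeR 4.0.16 (filterByExpr with minimum count 10 and minimum total 15, TMM factors 0.994 to 1.01, robust quasi-likelihood fit with treatment as the term, two-sided) tested 16738 of 46427 rows. The filter left all 9 members in. CPM are counts over library size times TMM factor, SEs and 95% intervals come from the fitted model, and common biological variation was 3.99%. Alternatives used DESeq2 1.42.0, limma 3.58.1, other scaling and filters, thinning to equal depth, a fold change of 1.2 as the null, summed reads of related ligands, a block for replicate number and each library left out. The script was tested on simulated data. Lengths and shared words came from GENCODE 29, and start site windows from RefSeq (GRCh38.p14). Sequences were aligned with Biopython 1.88. GRCh38 was used for sequences, lengths and gene order alone, as the count sheets hold no coordinates.

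The members and lists were chosen with earlier results of these data known. All members are named, and of each list the up to 4 genes with the smallest p-values, every called gene of the less frequent direction where both were called, and 3 nearest patterns per called member. A listed gene that this rule would name is not reported here. RAET1G, RAET1E, HLA-G, NECTIN1, NECTIN4, ADAM9, ADAM17, RHBDF1, RHBDF2, MMP2, HSF1, ATM, CHEK1 and ATR were named after their values were seen.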

Additional observations from a re-analysis of the deposited data

How the results depend on the processing

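Over all pathway lists, 26 of 58 genes tested were higher and 6 lower, beside 14.5% and 13.3% of all genes tested. The cause of the changes below was not tested. When the null was a fold change of 1.2, the test called 891 genes higher and 303 lower, and counts higher and lower were 2 and 0 for the members and 11 and 0 for all listed pathway genes. That setting left 1 other activating ligand, 3 other inhibitory ligands, 1 adhesion ligand and 1 shedding gene higher, and 0 regulators higher or lower. DESeq2 called 1620 genes higher and 1400 lower, and 3 members higher. It also called 1 other activating ligand higher, 3 regulators higher and 2 lower, the last being also its count over all pathway genes. With each library left out in turn, members higher ranged from 3 to 4, pathway genes lower from 2 to 5, other activating ligands higher from 1 to 2, regulators higher from 2 to 4 and regulators lower from 2 to 5. None of the members, nor of the pathway genes chosen by p-value or direction, reversed its sign under the alternatives run. Sign was not compared for the genes named after their values were seen. Other scaling, no filter, the stricter filter, limma-voom and thinning to equal depth left every count within 1.5 times, although MICA was lost without the filter (edgeR adjusted p = 0.0641) and with limma-voom (0.0527), and TNFSF9 (0.0351) and PDGFD (0.0260) passed under the stricter filter. The labels do not say whether replicate numbers pair the libraries. The correlation of replicate differences between groups was 0.044 over 16738 genes. With the replicate block, 2466 genes were higher and 2326 lower, and 6 members were higher and 1 lower. All 6 MHC class I genes were higher with the block, so that HLA-G, at 0 in replicate 1 of both groups, passed there. At 43 to 45 reads in the DMSO libraries, depth limits the precision of the RAET1L change.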

Other observations

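The cells also carried reads of natural killer receptor genes. These genes were chosen after their values were seen. KLRC2 and KLRC3, which encode receptors of the NKG2 family for HLA-E and close copies of each other, had 351 to 431 and 212 to 271 reads in the 4 libraries, and neither passed (edgeR adjusted p = 0.447 and 0.592). KLRK1, the gene of NKG2D itself, was at 0 reads after DMSO in each library, against 46 and 76 reads with BAY1217389. The read-through gene KLRC4-KLRK1, which holds the same sequence, went the other way, from 56 and 83 to 42 and 23 reads. Their summed reads were 56 and 83 after DMSO and 88 and 99 after BAY1217389, so the split between the genes is uncertain.

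HCP5, a noncoding gene of the MHC region, was also chosen after its values were seen. It had 116 and 139 reads after DMSO and 273 and 240 after BAY1217389 (log2 fold change 0.87, SE 0.16, edgeR adjusted p = 8.1e-05).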
